A study of Mus musculus with 16 samples.

Results

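Heat shock chaperones were examined in bone marrow-derived macrophages (BMDM) as 10 genes chosen by name: Hspa1a, Hspa1b, Hspa8, Hspa5, Hsph1, Hsp90aa1, Hsp90ab1, Dnajb1, Hspe1 and Hspd1. All 10 were among the 9614 genes measured. The set was chosen because Hspa1a and Hspa1b were higher in NELF-B-deficient cells, so the difference of this pair between genotypes is described without a test, and the other 8 genes carry the question of whether it extends to the family. PolyA RNA was measured by RNA-seq in 16 libraries. The control cells (WT) came from LysM-Cre:NELF-B wt/wt mice and the deficient cells (KO) from LysM-Cre:NELF-B fl/fl mice, all C57BL/6 males aged 8 weeks. Mice of both genotypes carry the LysM-Cre transgene, which is active in myeloid cells and removes the floxed NELF-B gene (Nelfb) there. BMDM of 2 mice per genotype (A and B) were left untreated. BMDM of 3 mice per genotype (A, B and C) received 10 ng/ml LPS for 1 hr, alone or together with 100 nM of the glucocorticoid dexamethasone (Dex). Each genotype has its own mice, the libraries of a mouse share its letter, and values are listed in the order A, B, C.

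Chaperones bind unfolded or partly folded proteins and help them reach or keep their shape. HSP70 proteins do this in cycles of ATP use, J-domain proteins such as DNAJB1 bring them substrates, HSP110 proteins such as HSPH1 release their nucleotide, and HSP90 proteins act later on kinases and steroid receptors, the glucocorticoid receptor included. Heat and other protein-damaging stress activate heat shock factor 1 (HSF1), which binds heat shock elements, inverted repeats of the letters GAA, and releases RNA polymerase II that is paused near the start of its target genes. The Hsp70 gene of the fruit fly is the classic example of such pausing, and NELF is a protein complex that holds the paused polymerase. LPS, from the outer membrane of Gram-negative bacteria, switches on inflammatory genes in macrophages, many of which Dex represses.

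The libraries held 25030934 to 49729708 reads on the genes measured, as recovered from the deposited values. Nelfb ranged from 3.27 to 4.38 log2 CPM (CPM are read counts scaled to a common library size by the authors) in the 8 KO libraries and from 5.59 to 6.21 in the 8 WT libraries. All 8 macrophage markers were in the table, and their summed level was 8272 to 14321 CPM. The weakest was Lyz2, the gene into which LysM-Cre is inserted, at 4.30 to 6.33 log2 CPM. Its KO minus WT difference was 0.94 ± 0.27 (SE) in untreated cells, 1.16 ± 0.22 with LPS and 1.30 ± 0.21 with LPS + Dex. It was not called in limma (lowest FDR = 0.172). Of the 8 markers 5 had a difference above 0 in each condition. Of 15 markers of other bone marrow cells, 4 were measured (S100a8, Col1a1, Col1a2 and Pecam1), and their sum was 78.2 to 144 CPM in the LPS libraries of the WT and 132 to 152 CPM in those of the KO. The part of these cells in the differences below was not tested. One library was unlike the rest, that of untreated WT mouse A: its correlation across genes with each of the other 15 was 0.830 to 0.909, and the 15 had 0.924 to 0.993 among themselves.

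The constitutive members were abundant and varied little between libraries, and the stress-inducible pair was scarce and varied most. Per kilobase of exon, Hsp90ab1 was the most abundant over the 16 libraries, with a median of 399 CPM per kb (range 333 to 531). Hspa5 followed with 208 (161 to 260) and Hspa8 with 156 (135 to 188), and their ranges overlap. Hspd1, Hspe1 and Hsp90aa1 had overlapping ranges around medians of 45.9, 41.8 and 35.9 CPM per kb. Dnajb1 (12.2) and Hsph1 (6.88) stood lower, and Hspa1b (2.55) and Hspa1a (0.716) were last. In the LPS-treated KO libraries Hspa1b, at 8.60 to 11.2 CPM per kb, was above Hsph1, at 6.70 to 7.34. Across the 16 libraries the log2 CPM of Hspa1a spanned 6.01 units and that of Hspa1b 5.22, whereas Hspe1 spanned 1.78, Dnajb1 1.29 and the other 6 members between 0.48 and 0.73.

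**Figure D1:**
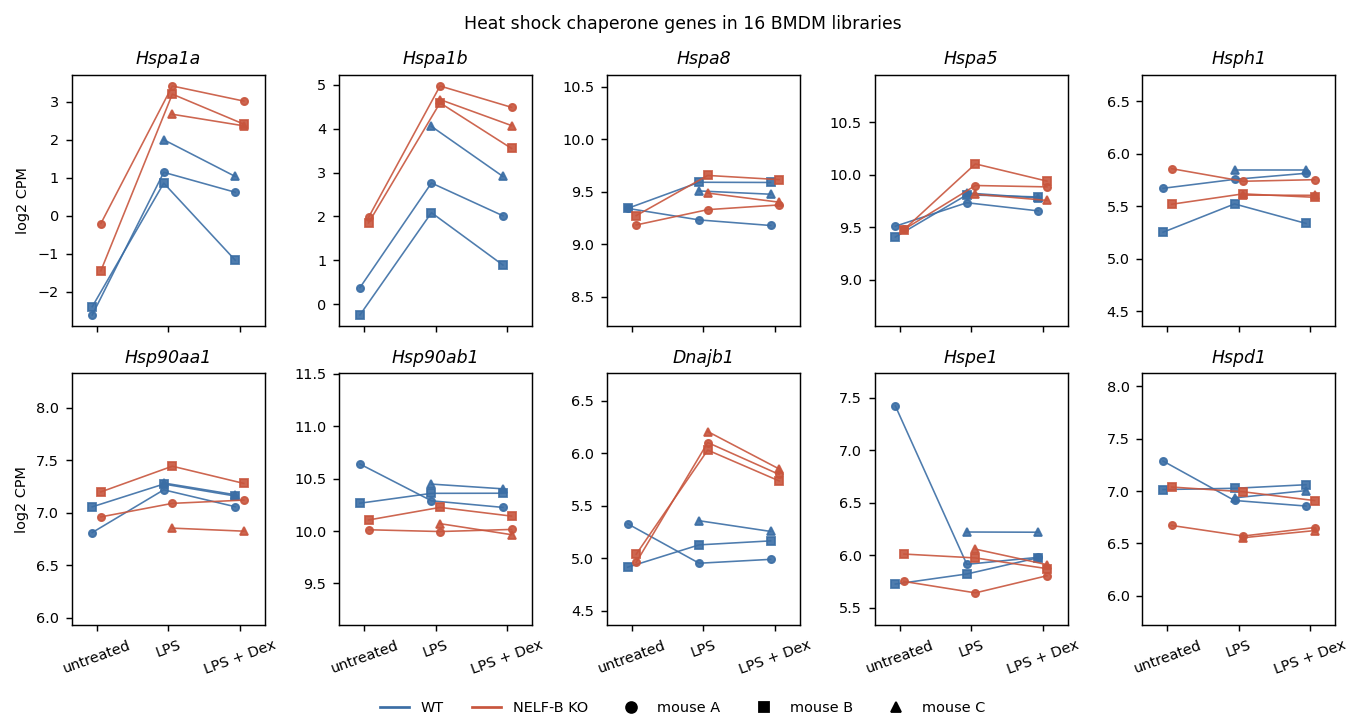
Log2 CPM (y axis) of each member in untreated, LPS-treated and LPS + Dex-treated BMDM (x axis), with a line for each mouse, WT in blue and NELF-B KO in red. The y axes differ between genes and those of Hspa1a and Hspa1b cover a wider range. The red lines of Dnajb1 leave the blue ones only after LPS, while those of Hspa1a and Hspa1b lie above the blue ones in all 3 conditions.

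Within an hour, LPS raised 2 of the 10 members in WT cells and 4 of the 10 in KO cells at an FDR under 0.05 in limma. In the WT these were Hspa1a and Hspa1b, beside 6.91% of all genes called (4.63% higher and 2.28% lower). No other member was called in the WT in this fit. Both genes are in the study's list of LPS-induced and Dex-repressed genes, chosen on WT mice A and B. Their WT calls for LPS and Dex are therefore not independent evidence. After centring each library on its median gene, 389 of 764 called genes were higher, against 445 of 664 without. In the KO they were Hspa1a, Hspa1b, Hspa5 and Dnajb1, beside 4.01% of all genes (2.92% higher and 1.09% lower). No member was called lower with LPS in either genotype. The median LPS difference of the 10 members, the pair included, was 0.175 log2 units for the WT and 0.16 for the KO, against 0.02 and -0.01 over all genes. With the mouse as a replicate block, 4 members passed in the WT, Hspa5 (FDR = 0.0361) and Hsp90aa1 (FDR = 0.0324) being added, and 13.8% of all genes. In the KO the block left the count at 4 (7.32% of all genes). Adding Dex to LPS changed 0 of 10 members in the WT (0.749% of all genes) and 0 of 10 in the KO (0.895%). With the replicate block it changed 1 in the WT, Hspa1b (2.19% of all genes), and 0 in the KO (2.57%). Over all genes 0.52% were called higher and 0.229% lower with Dex in the WT, and 0.614% and 0.281% in the KO. At an unadjusted p under 0.05, 1 member was lower with Dex in each genotype, Hspa1a in the WT and Dnajb1 in the KO, beside 332 and 372 genes in all.

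**Figure D2:**
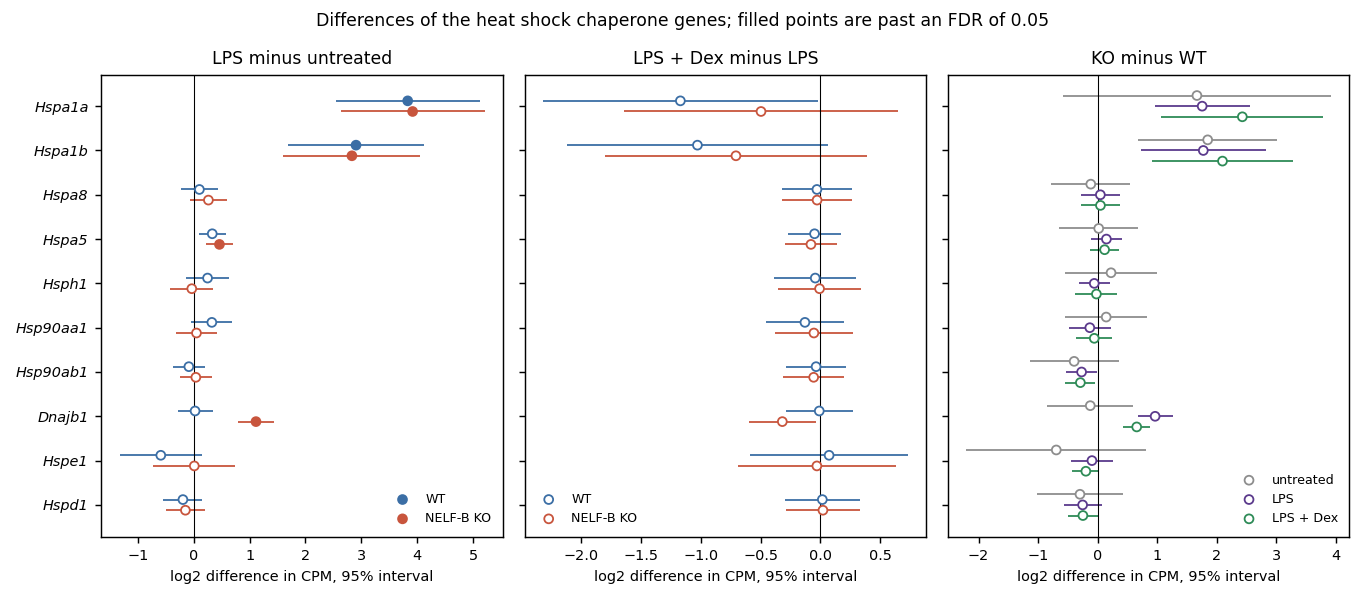
Log2 differences in CPM with 95% intervals from limma for LPS against untreated, LPS + Dex against LPS, and KO against WT. Points are the 10 members, filled where the FDR is under 0.05: 2 in the WT and 4 in the KO, all for LPS. The Hspa1a and Hspa1b differences between genotypes (right) are a description and were not tested.

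Hspa1a and Hspa1b encode stress-inducible cytosolic HSP70 from neighbouring copies on chromosome 17. Hspa1a lies at chr17:34969190-34972156 and Hspa1b at chr17:34956436-34959238, both on the minus strand of GRCm38. The copies are hard to tell apart with 50 bp reads, since 58.8% of the 50-base words in the annotated Hspa1a transcripts are also found in Hspa1b, and 62.3% of those in Hspa1b also in Hspa1a. The authors' table holds unique exon reads, and how reads that fit both copies were treated beyond this is not given in the sources used here. The split between the copies is therefore uncertain. Their promoters are near copies as well. The 250 bases before each start are shown because both copies of the pair carry them (RefSeq, GRCm38.p6, minus strand, 5′ to 3′), and they are identical at 247 positions. Capitals mark a pair of heat shock units (GAANNTTC or TTCNNGAA) and a CCAAT box, read here as ATTGG. The coordinates are chr17:34972157-34972406 for Hspa1a and chr17:34959239-34959488 for Hspa1b.
Hspa1a: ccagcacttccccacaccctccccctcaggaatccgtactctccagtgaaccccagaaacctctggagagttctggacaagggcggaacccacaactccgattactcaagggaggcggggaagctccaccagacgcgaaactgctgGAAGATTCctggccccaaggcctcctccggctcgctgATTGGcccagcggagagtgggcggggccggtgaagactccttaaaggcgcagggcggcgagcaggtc
Hspa1b: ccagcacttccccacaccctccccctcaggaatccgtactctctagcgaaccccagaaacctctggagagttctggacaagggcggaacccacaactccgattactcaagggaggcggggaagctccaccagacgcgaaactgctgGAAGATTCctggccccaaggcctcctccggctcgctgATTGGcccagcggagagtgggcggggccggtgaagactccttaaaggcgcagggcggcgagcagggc
The heat shock pair starts 104 bases and the CCAAT box 67 bases before the start in both. In the full element another inverted unit follows the pair after 2 bases of any kind. No exact match to it was found in these 250 bases, and 0.466% of the 32851 promoters of the table hold one. Matches with a changed base in a unit were not searched. The pair of units, a search chosen after the results were seen, overlaps the full element and is found in 12.84% of promoters, the CCAAT box in 33.85% and a TATA box (TATAAA) in 12.37%. Neither a TATA box nor a full glucocorticoid response element, the inverted repeat of AGAACA with 3 bases between that 0.009% of promoters hold, was found in either.

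In untreated WT cells Hspa1a was at the limit of what could be counted and LPS raised it strongly. It had 3 and 5 reads there (-2.61 and -2.39 log2 CPM). After LPS it had 66, 60 and 169 reads (1.14, 0.86 and 2.00 log2 CPM), and the groups did not overlap. Within mouse B the LPS library was 10.9-fold higher, with an exact 95% interval from the reads of 4.44 to 34.9, and within mouse A the interval was 5.24 to 79.5. These intervals cover counting error only. In limma the LPS difference was 3.83 ± 0.60 log2 units (SE; FDR = 0.00111) in the WT. In the KO, Hspa1a went from 33 and 12 reads (-0.21 and -1.45 log2 CPM) to 358, 265 and 290 reads (3.41, 3.19 and 2.66 log2 CPM), a difference of 3.92 ± 0.60 (FDR = 0.00100).

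Hspa1b had more reads and showed the same order of groups. In untreated WT cells it stood at 0.38 and -0.25 log2 CPM (28 and 25 reads) and after LPS at 2.76, 2.09 and 4.06. No LPS library was as low as an untreated one. The difference was 2.90 ± 0.57 (FDR = 0.00657), and its FDR was 0.0701 with voom weights on the recovered reads and 0.102 with the WT libraries alone. In untreated KO cells it stood at 1.98 and 1.85 and after LPS at 4.98, 4.59 and 4.67, a difference of 2.83 ± 0.57 (FDR = 0.00884). Without either untreated KO library the FDR of this difference was 0.0812 (without A) or 0.102 (without B), at 2.89 and 2.77 log2 units. Both genes are in a list of LPS-induced and Dex-repressed genes that the study chose on WT mice A and B, so their WT calls are not independent evidence of that direction.

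Both copies were at lower levels with LPS + Dex than with LPS in each of the 6 mice. The difference passed the test only for Hspa1b in the WT with the mouse as a block. WT mice A and B, which are in that test, were used to choose the list named above, so this pass is not independent evidence. With LPS + Dex, Hspa1b stood at 2.02, 0.89 and 2.91 log2 CPM in the WT, with differences from LPS alone of -1.20 to -0.75 in the 3 mice. In the KO it stood at 4.49, 3.55 and 4.07, with differences of -1.04 to -0.49. The WT groups overlap and the KO groups do not. The WT difference of -1.03 had an SE of 0.51 without the block (FDR = 1.0) and of 0.16 with the replicate block (FDR = 0.0129, with 2.19% of all genes called). In the KO the same comparison gave -0.71 ± 0.51 without the block and -0.71 ± 0.16 with it (FDR = 0.0668). The Hspa1a differences with Dex ran from -2.03 to -0.52 log2 units in the WT mice and from -0.79 to -0.30 in the KO mice. The block FDR of Hspa1a was 0.224 for the WT and 1.0 for the KO. The difference between genotypes in the response of the pair is given as a description: for Hspa1b the LPS change in KO minus that in WT was -0.07 ± 0.80 and the Dex change 0.32 ± 0.72, and for Hspa1a 0.09 ± 0.84 and 0.68 ± 0.75 (SE).

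The pair was higher in KO than in WT cells in each condition, which is the pattern that led to the choice of these genes and is given without a test. KO minus WT was 1.67 ± 0.88 log2 units for Hspa1a and 1.85 ± 0.46 for Hspa1b in untreated cells, 1.76 ± 0.34 and 1.78 ± 0.45 with LPS, and 2.43 ± 0.57 and 2.10 ± 0.50 with LPS + Dex (SE). The groups did not overlap in any of these, and the KO lay above the WT in this way for 15.7%, 5.91% and 8.93% of all genes. For comparisons between genotypes the mice were put into sets by letter. Mice B of both genotypes carry the same printed string on at least 1 library. Mice C share only the form of their labels, a number with the prefix S that differs between libraries, and set A holds the remaining mice, so a common batch within sets A and C is not given by the labels. With LPS, Hspa1b was higher in the KO by 2.21 log2 units in set A, 2.51 in set B and 0.61 in set C, and Hspa1a by 2.27, 2.34 and 0.67. In untreated cells of set B the KO had 12 and the WT 5 reads of Hspa1a, a ratio of 2.08 whose exact 95% interval from the reads was 0.682 to 7.53. The smallest differences with LPS were those of set C, where the WT mouse had the highest Hspa1a and Hspa1b of the WT. In the 12 treated libraries there were 2.22 to 4.38 Hspa1b reads for each Hspa1a read, and in the 4 untreated libraries, where Hspa1a had 3 to 33 reads, there were 4.67 to 10.6. Since these are bulk RNA measurements, more cells with the transcript and more RNA per cell cannot be told apart.

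**Figure D3:**
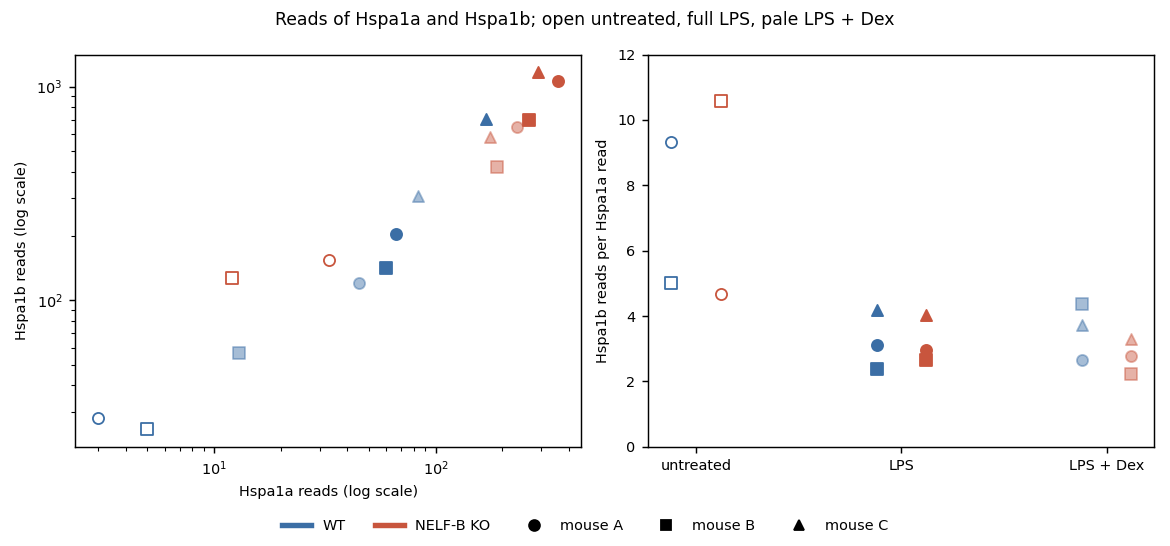
Reads of Hspa1b against reads of Hspa1a in each library (left, log axes) and Hspa1b reads per Hspa1a read by condition (right), with WT in blue, KO in red, and a symbol for each mouse. Open symbols are untreated, full symbols LPS and pale symbols LPS + Dex, and the ratio lies between 2.22 and 4.38 in the treated libraries and between 4.67 and 10.6 in the untreated ones.

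Dnajb1, the HSP40 that stimulates HSP70 and is itself a classic stress-inducible gene, was the only other member whose KO libraries all lay above the WT libraries in any condition, which they did with LPS and with LPS + Dex. It stood at 5.33 and 4.91 log2 CPM in the untreated WT and at 4.96 and 5.04 in the untreated KO. After LPS it was at 4.95, 5.13 and 5.36 in the WT and at 6.10, 6.03 and 6.21 in the KO. The untreated groups overlap, and after LPS every KO library was above every WT library. Such a gap was found for 5.91% of all genes with LPS and 8.93% with LPS + Dex.

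LPS raised Dnajb1 in the KO, by 1.11 ± 0.15 log2 units, or 2.16-fold (FDR = 0.000251), with 1.14 and 0.99 in mice A and B. The WT value was 0.02 ± 0.15 (95% interval -0.29 to 0.34, FDR = 0.920), with -0.38 and 0.21. The difference between these responses was 1.09 ± 0.21 (95% interval 0.65 to 1.53). Its unadjusted p was 0.000147, but over all genes its FDR was 0.690 (0.414 with the replicate block), and 0 of the 8 members and 0 genes in all passed (221 genes had an unadjusted p under 0.05). Without the untreated WT library of mouse A and with the block, an alternative chosen after the data were seen, the difference was 0.84. The LPS difference of Dnajb1 in the WT was then 0.24, and it rests on mouse B as the only untreated WT mouse. The WT change of -0.38 in mouse A uses the untreated library that was unlike the rest.

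Under LPS the KO minus WT difference of Dnajb1 was 0.97 ± 0.12 log2 units, or 1.96-fold, and the 3 sets of mice gave 0.85 to 1.15. The limma fit of the LPS libraries alone called no gene at an FDR under 0.05, the deleted gene Nelfb (FDR = 0.105) included. Dnajb1 had an FDR of 0.119 there (limma, unadjusted p = 9.2e-05). With the sets as a block (set block) the FDR of Dnajb1 was 0.0435 (0.125% of all genes called), in a single fit of all 16 libraries 0.0111 (0.146%), and without WT mouse B 0.0473. The single fit of 16 libraries counts libraries of 1 mouse as independent, which they are not. Leaving out each of the other 5 LPS libraries gave 0.166 to 0.789. With LPS + Dex it stood at 4.99, 5.16 and 5.26 log2 CPM in the WT and at 5.80, 5.74 and 5.85 in the KO. The difference was 0.66 ± 0.10, or 1.58-fold (FDR = 0.169). It passed with the set block (FDR = 0.0484, with 0.614% of all genes called), and did not in the single fit of 16 libraries (FDR = 0.0920, with 0.114%) or without any 1 of the 6 libraries (FDR 0.0514 to 0.556). In untreated cells it was -0.12 ± 0.28 (95% interval -0.85 to 0.60, FDR = 0.914), and the set block there called no member (0.0312% of all genes). With Dex, Dnajb1 differed by -0.36 to -0.29 in the KO mice, which gave -0.32 ± 0.13 (unadjusted p = 0.0294, FDR = 0.917), and in the WT mice the change ran from -0.10 to 0.04. The difference between genotypes in the Dex change was -0.31 ± 0.18 (FDR = 1.0).

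Dnajb1 lies on chromosome 8 at chr8:83608193-83612653 (GRCm38, plus strand), and only 0.412% of its 50-base words occur in other genes. The 200 bases before its first RefSeq start (chr8:83607975-83608174, plus strand, 5′ to 3′) are shown for comparison with the Hspa1a and Hspa1b promoters, with capitals for the same motifs.
Dnajb1: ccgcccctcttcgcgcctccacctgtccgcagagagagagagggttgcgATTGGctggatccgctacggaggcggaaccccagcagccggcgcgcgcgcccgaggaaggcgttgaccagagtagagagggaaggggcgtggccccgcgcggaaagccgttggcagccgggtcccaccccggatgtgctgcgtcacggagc
It holds a CCAAT box 151 bases before the start, and none of the other motifs searched. The other RefSeq start of Dnajb1 had no match in its window.

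Hspa8 and Hsph1 had KO minus WT differences near 0 in the treated cells. Hspa8, the HSC70 of unstressed cells, ranged from 9.18 to 9.66 log2 CPM over all 16 libraries. KO minus WT was -0.11 ± 0.26 in untreated cells, 0.05 ± 0.14 with LPS (95% interval -0.28 to 0.37) and 0.05 ± 0.14 with LPS + Dex. Of its 50-base words 39.4% occur in other annotated genes, most in the pseudogene Gm15459, so its count is uncertain. Hsph1 ranged from 5.25 to 5.86, and its KO minus WT differences were 0.23 ± 0.30, -0.06 ± 0.11 and -0.02 ± 0.15 in the same order. Neither was called for LPS or Dex in either genotype in the fits of all libraries. With the block and without the untreated WT library of mouse A, the LPS difference of Hspa8 in the WT was 0.26. That fit leaves mouse B as the only untreated WT mouse.

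No HSP90 gene was called between genotypes. Hsp90aa1, the stress-inducible HSP90, ranged from 6.81 to 7.44 log2 CPM. Its LPS difference in the WT was 0.32 ± 0.17 (FDR = 0.223) and, with the replicate block, 0.31 ± 0.08 (FDR = 0.0324), with 0.41 and 0.22 in mice A and B. In the KO it was 0.05 ± 0.17 (FDR = 1.0) and, with the block, 0.18 ± 0.08 (FDR = 0.295), with 0.13 and 0.25 in mice A and B. KO minus WT was between -0.13 and 0.15 in the 3 conditions. Of its 50-base words 47.5% occur in other genes, most in the gene model Gm12346. Hsp90ab1, the constitutive HSP90, was lower in the KO than in the WT in every set of mice and in every condition. With LPS it stood at 10.29, 10.36 and 10.45 log2 CPM in the WT and at 9.99, 10.22 and 10.07 in the KO, and the groups did not overlap in any condition. All KO libraries were below all WT libraries for 13.8%, 7.82% and 8.83% of all genes (untreated, LPS, LPS + Dex). In untreated cells Hsp90ab1 differed by -0.63 in set A, which holds the library unlike the rest, and by -0.16 in set B. KO minus WT was -0.39 ± 0.29 in untreated cells, -0.27 ± 0.11 with LPS (unadjusted p = 0.0463, FDR = 0.568) and -0.29 ± 0.11 with LPS + Dex (unadjusted p = 0.0295, FDR = 0.364), so no call was made.

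Hspa5 encodes BiP, the HSP70 of the endoplasmic reticulum, and is best known for its rise in the unfolded protein response. Untreated cells stood at 9.51 and 9.41 log2 CPM in the WT and at 9.48 and 9.48 in the KO. LPS-treated cells stood at 9.73, 9.81 and 9.83 in the WT and at 9.90, 10.10 and 9.82 in the KO. All LPS libraries were above all untreated ones. LPS raised it by 0.46 ± 0.11 in the KO (1.38-fold, FDR = 0.0347) and the WT difference was 0.33 ± 0.11 (FDR = 0.0967). The WT value passed with the replicate block (0.31 ± 0.08, FDR = 0.0361), and the KO value did not in 10 of 16 fits without a library (FDR up to 0.259) nor after centring each library on its median gene (FDR = 0.0718). The KO minus WT difference in the LPS response was 0.13 ± 0.16 (95% interval -0.22 to 0.47), and the Dex differences were -0.05 for the WT and -0.08 for the KO, neither called.

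Hspd1 and Hspe1 encode the mitochondrial chaperonin HSP60 and its lid HSP10. They lie head to head on chromosome 1, Hspd1 at chr1:55077835-55088243 on the minus strand and Hspe1 at chr1:55088132-55091307 on the plus strand of GRCm38, and their annotated ends overlap. RefSeq has the Hspe1 start at 55088148 and Hspd1 starts at 55087932 and 55088243. The stretch between 55087932 and the Hspe1 start lies before both of these. It holds the only exact full heat shock element found upstream among the 7 members with a promoter in the table. The stretch is chr1:55088053-55088082 (GRCm38.p6, plus strand, 5′ to 3′), it also lies in the first exon of 1 annotated Hspd1 transcript, and capitals mark 2 overlapping matches.
Hspe1 and Hspd1: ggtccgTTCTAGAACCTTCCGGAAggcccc
The matches start 89 and 84 bases before the Hspe1 start, and on the other strand they start 144 and 139 bases before the Hspd1 start at 55087932. They lie after the other Hspd1 start. Hsph1 had a full match only after its start, and Hspa5 had none. Hspa8, Hsp90aa1 and Hsp90ab1 have no promoter entry in the table used.

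Neither gene was called between genotypes. Hspd1 ranged from 6.56 to 7.29 log2 CPM, and KO minus WT was -0.30 ± 0.29 in untreated cells, -0.25 ± 0.14 with LPS and -0.25 ± 0.11 with LPS + Dex (FDR = 0.461), lower in the KO in 3 of 3 sets in each treated condition. Hspe1 gave -0.09 ± 0.15 with LPS and -0.20 ± 0.10 with LPS + Dex (FDR = 0.518). In untreated cells Hspe1 stood at 7.42 in WT mouse A and 5.72 in WT mouse B, against 5.75 and 6.01 in the KO, so the untreated values of the WT rest on the library that was unlike the rest. The LPS difference of Hspe1 in the WT was -0.59 ± 0.34 with both untreated libraries, 0.26 ± 0.19 without mouse A, and -1.44 ± 0.19 (FDR = 6.6e-05) without mouse B, which leaves mouse A alone. Of the Hspd1 words of 50 bases, 39.7% occur in other genes, chiefly the pseudogene Hspd1-ps3, and of those of Hspe1, 18.4%, so both counts are uncertain.

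The question was whether the higher Hspa1a and Hspa1b levels in the KO extend to the family. Between genotypes limma called 0 of the 8 other members in untreated, LPS-treated and LPS + Dex-treated cells. The share over all genes was 0% in each. In simulated data this comparison recovered 0 of 200 genes changed 2-fold when untreated and 0 of 200 changed 1.5-fold with LPS + Dex. The absence of calls therefore does not decide whether changes of that size occurred. With an unadjusted p below 0.05 there were 0, 2 and 2 of 8 members, the 2 being Dnajb1, which was higher, and Hsp90ab1, which was lower, beside 0.385%, 8.44% and 11.3% of all genes. In untreated cells no member was above the WT without overlap and 2 were below (Hspa8 and Hsp90ab1), beside 15.7% and 13.8% of all genes. With LPS, 1 was above (Dnajb1) and 1 below (Hsp90ab1), beside 5.91% and 7.82%. With LPS + Dex, 1 was above (Dnajb1) and 2 were below (Hsp90ab1 and Hspe1), beside 8.93% and 8.83%. The median KO minus WT difference of the 8 was -0.118, -0.075 and -0.037 log2 units, against 0.019, 0.001 and 0.011 over all genes.

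Further chaperone genes were read from chosen lists, and few were called. Over all genes LPS called 4.63% higher in the WT and 2.92% in the KO. Of 5 heat shock factors and their regulators, 1 was called higher with LPS in each genotype. This was Ier5, an immediate-early gene whose product activates HSF1, which rose by 1.03 ± 0.23 log2 units in the WT (FDR = 0.0149) and by 1.25 ± 0.23 in the KO (FDR = 0.00438). The FDR of Ier5 in the WT was 0.109 without untreated WT mouse A, 0.0552 without LPS-treated WT mouse C and 0.156 with the WT libraries alone, and without untreated KO mouse A that in the KO was 0.0914. Ier5 was higher in the KO in each set of mice, by 0.62 to 1.05 with LPS, and did not pass (0.86 ± 0.19, FDR = 0.254). Of 14 measured stress-inducible HSF1 targets, 1 was called higher with LPS in each genotype. This was Dnajb4, an HSP40 close to Dnajb1, which rose by 2.24 ± 0.10 in the WT (FDR = 6.1e-09) and by 1.84 ± 0.10 in the KO (FDR = 3.5e-08). After LPS its KO minus WT difference was 0.06 ± 0.09 (FDR = 0.960), and in untreated cells 0.45 ± 0.27 (FDR = 0.889).

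The constitutive HSP70, J-domain and BAG genes (19 measured), the HSP90 cochaperones (10), the TRiC and prefoldin subunits (14), the endoplasmic reticulum genes (20) and the mitochondrial genes (10) had 0 members called for LPS in either genotype, beside 6.91% of all genes in the WT and 4.01% in the KO. Dex, which called 0.749% of all genes in the WT and 0.895% in the KO, raised Fkbp5, a cochaperone of HSP90 and a classic target of the glucocorticoid receptor, by 2.86 ± 0.21 in the WT (FDR = 1.7e-05) and 3.10 ± 0.21 in the KO (FDR = 6.0e-06), the difference being 0.24 ± 0.30 (FDR = 1.0). It also raised Hspa2, an HSP70 known from the testis, by 0.82 ± 0.16 in the KO (FDR = 0.0235). This value fell short of the threshold without each of 5 of the 6 treated KO libraries in turn (FDR 0.0837 to 0.141), and in the WT Hspa2 differed by 0.40 ± 0.16 (FDR = 0.897). KO minus WT of Hspa2 was 1.07 ± 0.13 with LPS + Dex (FDR = 0.0889). No gene of any list was called between genotypes or for a difference in response. The immediate-early genes, listed as other rapidly induced genes, rose with LPS in 6 of 7 cases in each genotype (all but Atf3), against 4.63% and 2.92% of all genes. Egr1 rose by 6.71 ± 0.31 in the WT and 6.87 ± 0.31 in the KO. Among the others, Fosb (3.79 ± 0.49) and Junb (2.73 ± 0.32) rose in the WT and Ier2 (3.94 ± 0.38) in the KO. All 7 had a KO minus WT difference above 0 with LPS, with a median of 0.599 and no call (lowest FDR = 0.254), against a median of 0.009 for the HSF1 targets and -0.168 for the endoplasmic reticulum genes. Among the macrophage markers LPS raised Cd14, the LPS coreceptor, by 1.47 ± 0.14 in the WT and 1.66 ± 0.14 in the KO. None of the 4 markers of other cells was called in any comparison.

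**Figure D4:**
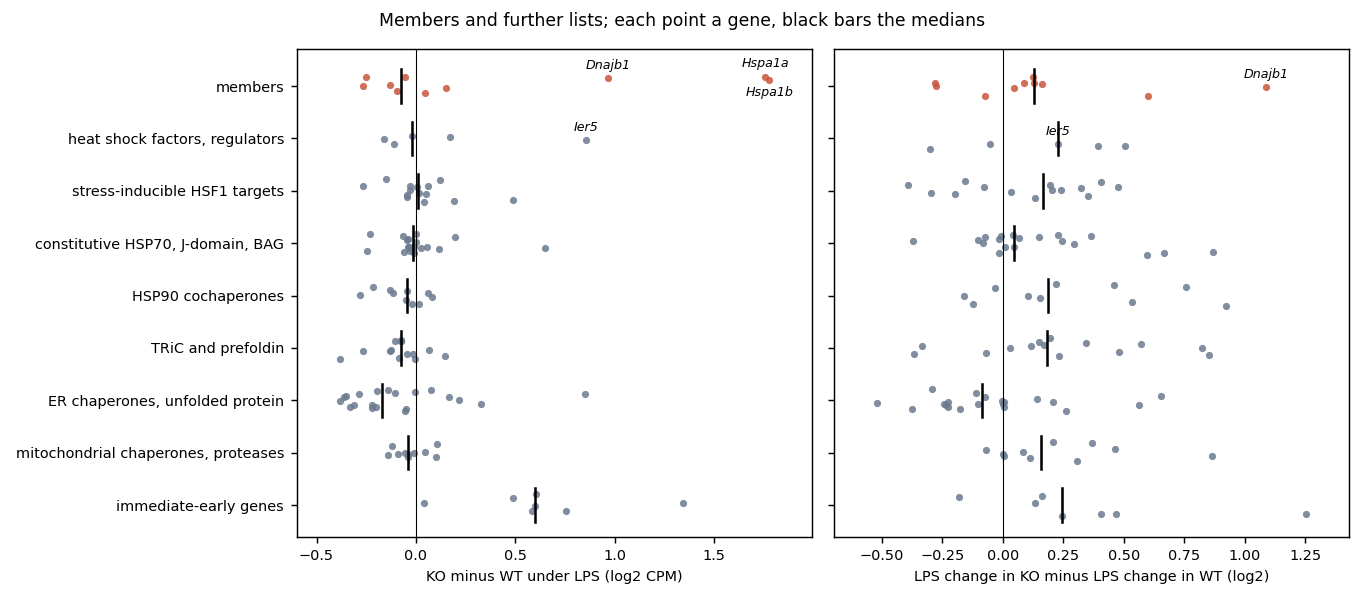
KO minus WT log2 CPM under LPS (left) and the LPS change in KO minus that in WT (right) for each gene of the members and 8 further lists, with black bars for medians (for the members, of the 8 other than Hspa1a and Hspa1b). Dnajb1 (0.97) and the Hspa1 pair lie to the right of the other members on the left panel, and Dnajb1 (1.09) does so on the right panel.

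Across the 16 libraries the log2 levels of Hspa1a and Hspa1b followed each other with r = 0.97. The 5 genes outside the members whose levels were most like the mean of the pair were Arf4 (r = 0.96), Sowahc (0.95), Sod2 (0.95), Ccng2 (0.92) and Ier5 (0.92). They were not tested, and the points share LPS treatment, genotype and mice. Sowahc ran from 4.92 and 5.80 log2 CPM on average in untreated WT and KO cells to 6.58 and 7.57 with LPS. Sod2, mitochondrial superoxide dismutase, ran from 8.00 and 8.30 to 8.97 and 9.35. Of the other members Hspa5 (r = 0.82) and Dnajb1 (0.79) were most like the pair, at ranks 85 and 148 among genes, and Hspd1 (-0.68) and Hsp90ab1 (-0.52) ran the other way.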

How the data were processed

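RNA-seq was performed by the authors on polyA RNA of BMDM (TruSeq libraries, HiSeq2500). The authors aligned paired 50 bp reads to mm10 in CLC Bio Genomic Workbench and took the uniquely mapped exon reads of each gene. Scaling by a weighted trimmed mean was done by the authors in edgeR, and log2 CPM of 9614 genes were deposited. The filter and tool versions are not given in the sources used here, except CASAVA 1.8. A further 18 columns hold p-values and FDR of the authors' own comparisons and were not used.

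The deposited log2 CPM of all genes were fitted with limma 3.58.1 (lmFit, eBayes with trend; R 4.3.3) and adjusted by the Benjamini-Hochberg method, two-sided, at an FDR under 0.05. LPS, Dex and the differences in response were fitted on all 16 libraries in 6 groups, and KO against WT on the libraries of each treatment. Values after ± are SE. Counting intervals were computed with scipy 1.17.1 under Python 3.11.15. Whole reads were recovered from the equal steps of the low values above a floor of -5.15 log2 CPM: 100% of values under 3 CPM came within 0.1 of a whole read in each library. A floor of 3 reads was 0.0653 to 0.136 CPM. Without counts, a count model was not run; limma's voom was run on recovered reads.

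Libraries of 1 mouse are paired by the mouse numbers in the labels, and their deviations from the group means correlated with r of 0.19 to 0.94 in the 10 pairs. The single fit of 16 libraries for KO against WT counted libraries of 1 mouse as independent. So did the fits of LPS, Dex and the differences in response, except with the replicate block. With that block the p-values measure how the change within a mouse varies between mice. For KO against WT within a treatment they measure the spread between mice. The fits were first tested on simulated data with 200 changed genes and independent libraries. In the order 1.5-, 2- and 4-fold, 7, 120 and 192 of them were recovered for LPS in the WT. KO against WT gave 0, 0 and 172 in untreated cells and 0, 127 and 184 with LPS + Dex. The Dex difference in response gave 0, 82 and 175. Other comparisons were not simulated.

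The members, the further lists and the tests were chosen with earlier results of these data known. Genes named are the members, Nelfb, up to 3 called genes per further list and comparison, and the 5 genes most like the mean of Hspa1a and Hspa1b. Of the listed genes, Hspb1, Hspb8, Cryab, Hspa1l, Bag2, Bag4 and 11 markers of other cells were not among those analysed. Adgre1 was found under an older symbol. Positions are from GENCODE vM21 (GRCm38) and promoters from RefSeq (GRCm38.p6). The 250 bases before the start were searched on both strands for exact matches. The alternatives tried were the replicate block, the sets of mice as a block, other samples in the fit, another threshold, filter, pseudocount or scaling, voom, the sum of Hspa1a and Hspa1b, and leaving out each library.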

Additional observations from a re-analysis of the deposited data

How the results depend on the processing

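The count of members called for LPS in the WT (2) was 1 with genes above a mean log2 CPM of 1, with voom, with Hspa1a and Hspa1b summed and with WT libraries only. Hspa1a is removed by that filter and the sum makes a single feature of the pair. It was 4 with the replicate block and 6 with the block without untreated WT mouse A, and 2 to 3 without a library. For LPS in the KO (4) it was 2 to 4 without a library. With the replicate block it was 4. For Dex in the WT (0) the block gave 1, Hspa1b. For Dex in the KO and for both differences in response the block changed no count. Without a library the count was 0 to 2 for the LPS difference in response and 0 to 1 for KO against WT in untreated and LPS-treated cells. Without untreated WT mouse B, which leaves the library unlike the rest as the only untreated WT library, 5390 genes in all were called for LPS in the WT (664 with both libraries). The study's unadjusted threshold with over 1.5-fold, as used here, took a lower p for the difference in response than for KO against WT. It gave 1 member, Dnajb1, for the LPS difference in response (10 genes in all). The same member was the only 1 for KO against WT with LPS and with LPS + Dex. Dnajb1 was also the 1 member called with the set block in both treated conditions, and with LPS in a single fit of 16 libraries. Over all genes, the replicate block called 1326 for LPS in the WT, 704 for LPS in the KO (386 without it), 211 for Dex in the WT (72) and 247 for Dex in the KO (86). An FDR under 0.1 called 1179 for LPS in the WT and libraries of 1 genotype 253, and for Dex 18 in the WT and 143 in the KO. For KO against WT the unadjusted threshold called 37, 339 and 361 genes in untreated, LPS-treated and LPS + Dex-treated cells. Without untreated WT mouse B there were 3734 genes for the LPS difference in response (Dnajb1 and Hspe1 among them) and 4203 for KO against WT untreated (Hspe1 among them). Of 193 counts of members under alternatives 174 stayed within 1.5 times. Most comparisons had a count of 0 in the main fit, where this only means 0 again, so the 174 are no measure of robustness. No called value of a named gene changed sign. At 25030934 to 49729708 reads, of the members only Hspa1a in untreated WT cells was near the floor of 3 reads. Fosb was also low there, at a mean of -1.88 log2 CPM. Beyond that the number of mice limits the precision.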
